A study of Mus musculus with 15 samples.

Results

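The 10 genes described here encode the enzymes that release fatty acids from stored fat and the proteins that control them. They are Pnpla2, Pnpla3, Lipe, Mgll, Abhd5, G0s2, Hilpda, Lipa, Prkar2b and Fabp12, taken by name. Each was found as 1 of the 25206 probe sets, whose identifiers carry the Entrez number of the gene. Those numbers were 66853 for Pnpla2, 116939 for Pnpla3, 16890 for Lipe, 23945 for Mgll, 67469 for Abhd5, 14373 for G0s2, 69573 for Hilpda, 16889 for Lipa, 19088 for Prkar2b and 75497 for Fabp12. All 10 were measured on all 15 arrays, and no filter on low values was applied.

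In fat cells, triglyceride is cleaved at the droplet surface in order by the lipase that Pnpla2 encodes (ATGL), by hormone-sensitive lipase (Lipe) and by monoglyceride lipase (Mgll). ATGL is activated by the product of Abhd5 and inhibited by those of G0s2 and Hilpda. Catecholamines start the process through cyclic AMP and protein kinase A, which phosphorylates hormone-sensitive lipase and the droplet coat protein perilipin. In brown and beige adipocytes the released fatty acids both fuel and activate UCP1, the uncoupling protein that turns respiration into heat.

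RNA came from adipocytes sorted by flow cytometry from mice 8 to 10 weeks old on a standard chow. WAT denotes UCP1-negative white adipocytes of untreated inguinal fat (4 arrays), and BAT denotes UCP1-positive brown adipocytes of untreated brown fat (3 arrays). The remaining groups were UCP1-positive inguinal adipocytes of mice given CL316243, which activates the beta-adrenergic receptor ADRB3 (CL, 3 arrays), roscovitine, an inhibitor of cyclin-dependent kinases (RS, 2 arrays), or rosiglitazone, an agonist of PPARG (RG, 3 arrays). The mice are labelled UCP1/Tomato and the gate UCP1(GFP), so which reporter was sorted on is not settled. Dose, treatment time and sex are not given in the sources used here. No array held untreated UCP1-positive inguinal cells, so treatment and gate change together in every comparison of CL, RS or RG with WAT. Whether arrays came from separate animals is not stated, so p-values measure only the spread between these samples, which may be technical. Another RS array was not analysed here, and the fit assumed that RS arrays vary as much as those of the remaining groups.

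WAT 4 stood apart from the other WAT arrays. The mean over 12 mature adipocyte markers was 7.43 in WAT 4, between 8.81 and 9.33 in the other WAT arrays, and between 9.33 and 10.05 in the UCP1-positive arrays. Over 19 macrophage markers the mean was 7.88 in WAT 4, 7.03 to 7.27 in the other WAT arrays, 4.78 to 5.02 in BAT, 4.73 to 5.50 in CL, 4.46 to 4.92 in RS and 4.79 to 5.69 in RG. Against WAT, 18 of these markers were lower in BAT, 18 in CL, 18 in RS and 17 in RG, and none was higher. Of 16 stromal and preadipocyte markers, 15, 10, 14 and 7 were lower in BAT, CL, RS and RG, and none was higher. No defining marker of either list was below the array median on every array. Endothelial markers were lower than in WAT in 7 of 12 genes in RS and 2 in RG, and in none in BAT or CL. The part of other cell types in the values of the lipolysis genes was not tested, and in sorted bulk samples fewer cells of a type and less RNA per cell cannot be told apart. The gate itself was visible: Ucp1 lay between 3.20 and 4.47 in WAT, between 10.19 and 11.22 in BAT and CL, and between 6.05 and 8.88 in RS and RG.

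**Figure D1:**
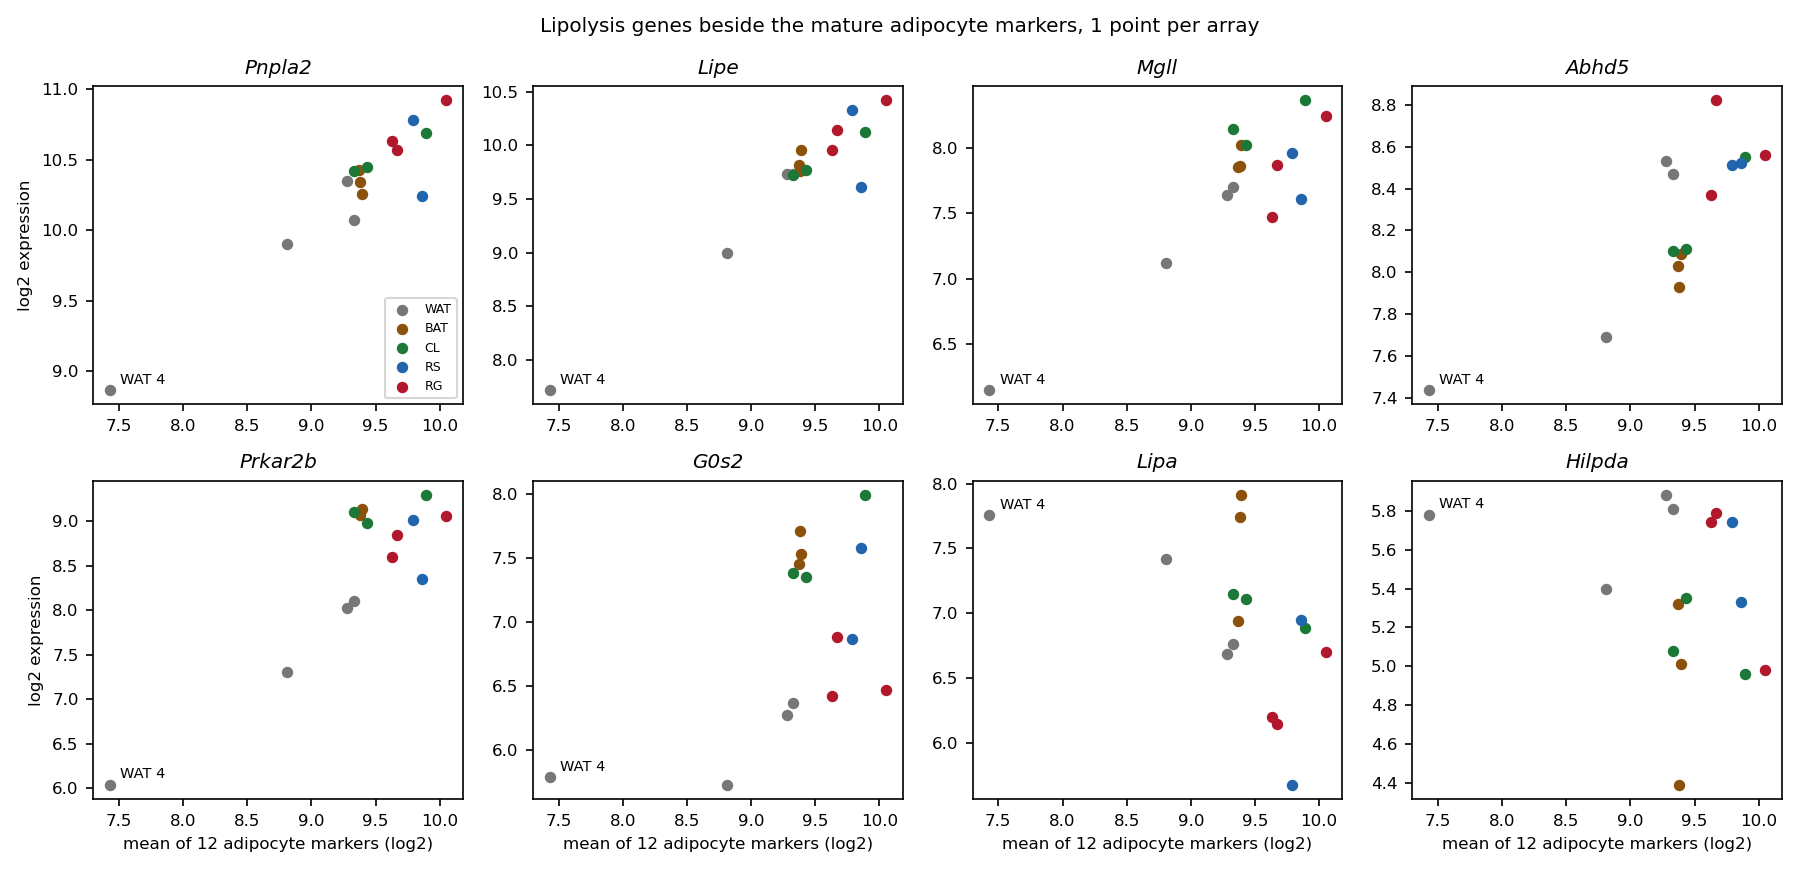
Log2 expression of 8 lipolysis genes (vertical axis) against the mean of 12 mature adipocyte markers (horizontal axis, log2), 1 point per array and 1 colour per group. WAT 4 lies far left at 7.43 and is the lowest array for Pnpla2, Lipe, Mgll, Abhd5 and Prkar2b, but not for G0s2, Lipa or Hilpda.

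Promoter sequence from RefSeq (GRCm38.p6) was given for 9 of the genes in 13 windows, each from 250 bases before the transcription start to 50 after it, and Fabp12 had no window. Searched on both strands were 4 motifs: TGACGTCA, the full site of cyclic AMP response factors, ACGTG, the core bound by hypoxia-inducible factors, AGGTCA, a nuclear receptor site, and GGGCGG, the GC box. TGACGTCA was in 1 of the 13 windows (Pnpla3), against 1.79% of all 32851 windows. ACGTG was in 5 of the 13 (19.6% of all windows), AGGTCA in 1 (Abhd5; 16.3%) and GGGCGG in 11 (35.7%). The stretches below are the 120 bases before the start, written 5′ to 3′ along the gene, with the 4 motifs in capitals, for the 2 genes whose levels differed most often between groups, for Hilpda, a known hypoxia target, and for Pnpla3, which carries the cyclic AMP site.
Prkar2b (chr12:32061278-32061397, minus strand): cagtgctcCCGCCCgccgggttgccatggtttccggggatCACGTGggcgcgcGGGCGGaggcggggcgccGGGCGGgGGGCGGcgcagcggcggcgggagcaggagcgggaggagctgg
G0s2 (chr1:193273189-193273308, minus strand): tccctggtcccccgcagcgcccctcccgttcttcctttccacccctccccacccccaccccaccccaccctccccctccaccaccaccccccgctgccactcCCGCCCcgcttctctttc
Hilpda (chr6:29272506-29272625, plus strand): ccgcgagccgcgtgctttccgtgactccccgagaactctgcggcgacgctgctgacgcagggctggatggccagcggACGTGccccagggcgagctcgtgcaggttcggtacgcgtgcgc
Pnpla3 (chr15:84167696-84167815, plus strand): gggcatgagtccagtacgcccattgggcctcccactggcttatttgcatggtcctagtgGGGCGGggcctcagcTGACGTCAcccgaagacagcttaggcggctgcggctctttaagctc

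In the Prkar2b stretch the capitals CACGTG are an ACGTG match on each strand that overlap, at -80 from the start, and the other capitals are GC boxes. The G0s2 stretch holds 1 GC box, on the opposite strand at -18, and none of the other motifs. The Hilpda stretch belongs to the second of its 2 windows and holds ACGTG at -43. In Pnpla3 the site TGACGTCA lies at -46, beside a GC box at -61. A match describes the letters of the window and does not show that a factor binds there.

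Across the 10 pairs of groups, 15 of 100 differences passed the test (limma, two-sided, Benjamini-Hochberg adjusted over all probe sets, threshold 0.05), and these are the differences called higher or lower below. Of the 10 genes, 7 differed in at least 1 comparison, while Pnpla3, Lipe and Abhd5 passed in none. Of all probe sets, 44.0% were called either way in BAT, 25.2% in CL, 21.4% in RS and 11.4% in RG against WAT. The share was 14.3% in RG against BAT, 3.67% in RS against BAT and 2.05% in CL against BAT. It was 2.87% in CL against RG, 1.27% in RS against CL and 0.682% in RS against RG. The share of all probe sets called at least once was not computed. G0s2 accounted for 5 of the 15, Prkar2b for 4 and Fabp12 for 2. Against WAT, 3 genes were higher and 1 lower in BAT, where 27.6% of all probe sets were called higher and 16.4% lower. In CL 4 genes were higher (15.2% of all probe sets), in RS 2 (11.1%) and in RG 2 (5.19%). These 4 comparisons share the WAT arrays and are not independent of each other. Earlier results of these data were known when the 10 genes and the lists below were chosen. Their shares beside those of all probe sets are therefore a description, not a test. The median difference over the 10 genes was 0.64 in BAT, 0.71 in CL, 0.67 in RS and 0.63 in RG, against 0.18, 0.13, 0.14 and 0.10 over all probe sets. Without WAT 4 the medians of the 10 genes were 0.39, 0.40, 0.35 and 0.42, against 0.16, 0.11, 0.11 and 0.09.

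WAT 4 was the lowest of all 15 arrays for 6 of the 10 genes (Pnpla2, Pnpla3, Lipe, Mgll, Abhd5 and Prkar2b). Without WAT 4, 3 of the genes were called in BAT, 3 in CL, 2 in RS and 1 in RG. Other arrays moved these counts too: in BAT the count was 7 without WAT 3, and in CL 2 without CL 4. In RS it was 1 without RS 3, RS 4 or WAT 2 and 4 without WAT 3, and in RG 0 without RG 2 or RG 4 and 1 without CL 1, RG 3 or WAT 2. Leaving out an array can also change the share of all probe sets called, which is not given for these fits. Scaling every array to its adipocyte markers, a check added after the data were seen, moved the median of all probe sets in BAT, CL, RS and RG against WAT to -0.48, -0.70, -0.95 and -0.94. Of the 12 markers, 5, 2, 4 and 6 were themselves called higher than WAT in these groups, and none lower. These counts include Plin1, called in RS and RG, which the scaling leaves out. Within a comparison the scaling takes the same amount off every gene. Small positive differences from WAT are thus lost or reversed, and negative ones enlarged, by construction, here and in every paragraph below. The scaling cannot tell adipocyte content from regulation of the markers. Of all calls against WAT, 62.6% in BAT, 60.4% in CL, 51.7% in RS and 45.4% in RG were higher. Median centring gave 51.5%, 50.7%, 39.2% and 42.7%, quantile normalisation 53.2%, 50.9%, 46.9% and 47.8%, and adipocyte marker scaling 2.31%, 0.656%, 0.0255% and 0.0948%. Under that last scaling 1 of the 15 differences was still called, that of Hilpda in BAT, and 18 of the 40 differences of the 10 genes from WAT turned their sign. The medians of the 10 genes were then -0.02, -0.12, -0.41 and -0.42. The genes called against WAT under it were Hilpda, lower in all 4 groups, and Lipa, lower in RS and RG. Of all probe sets, 17.3% in BAT, 18.7% in CL, 31.1% in RS and 37.7% in RG were called under it, nearly all of them lower.

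**Figure D2:**
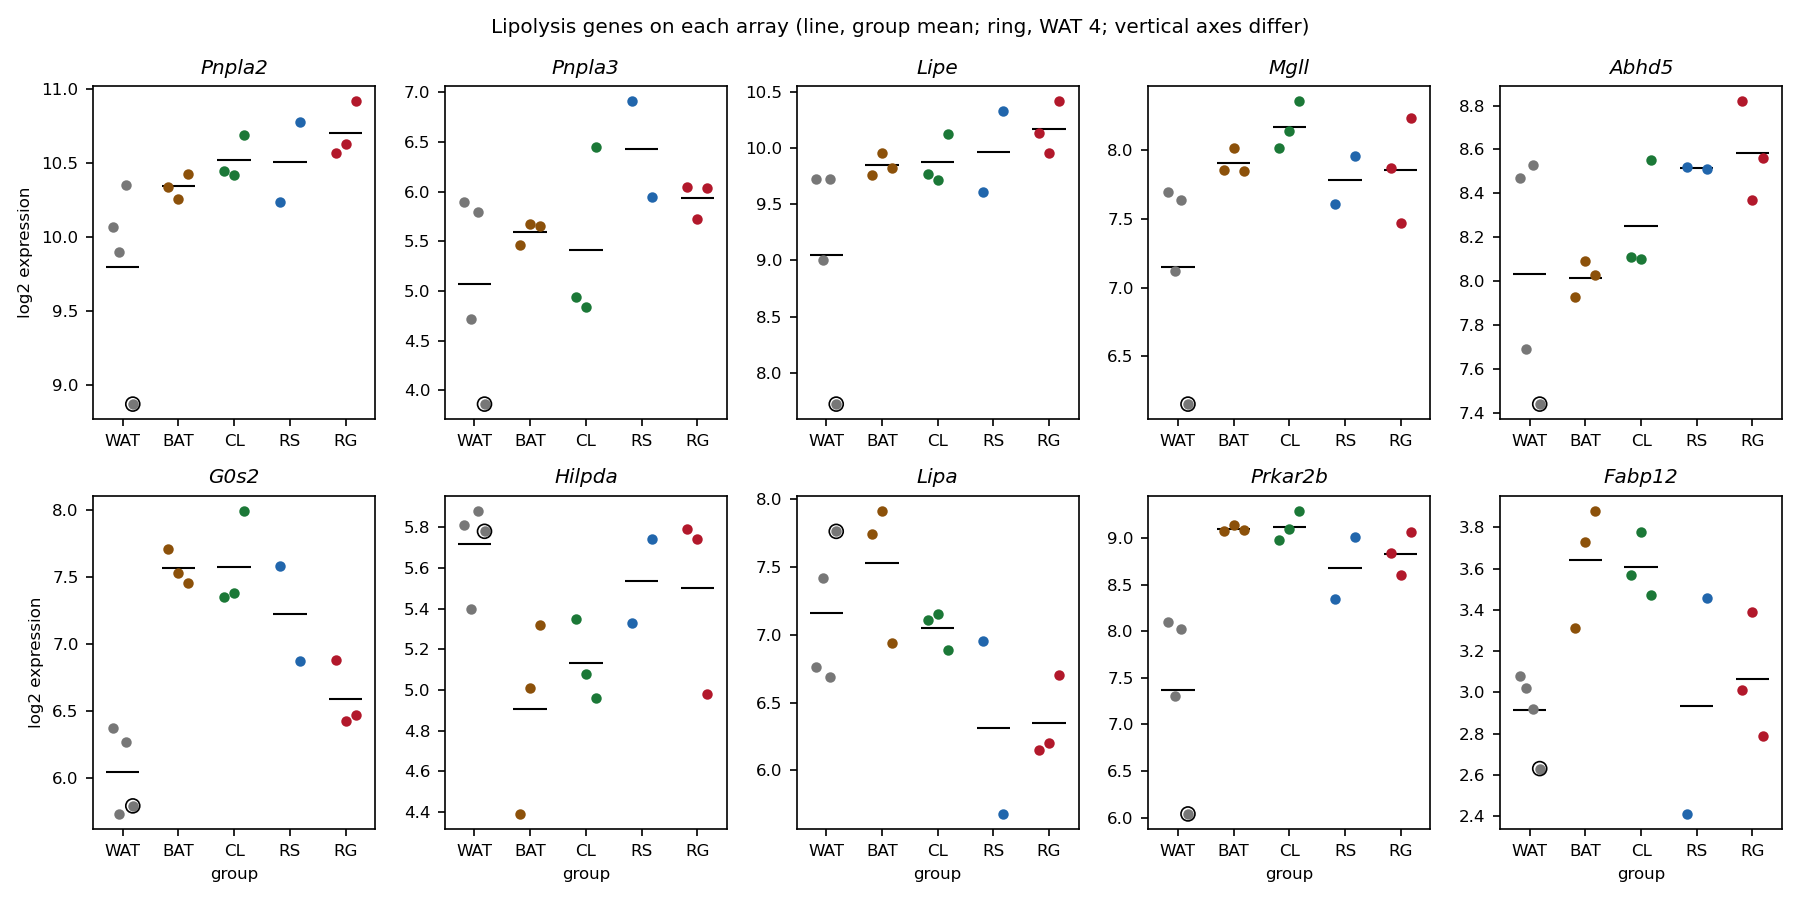
Log2 expression of the 10 lipolysis genes by group, 1 point per array, with the group mean as a line, a ring around WAT 4 and a separate vertical axis for each gene. G0s2 separates WAT (5.73 to 6.37) from BAT and CL (7.35 to 7.99), and Prkar2b is higher on every UCP1-positive array (8.35 to 9.29) than on any WAT array (6.04 to 8.10).

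Pnpla2, whose product takes the first fatty acid off triglyceride, was higher in RG than in WAT in the deposited values, and read -0.14 when arrays were scaled to their adipocyte markers. Its level was 10.07, 9.90, 10.35 and 8.87 in WAT 1 to 4, and 10.57, 10.63 and 10.92 in RG 2, 3 and 4. It was 10.34, 10.26 and 10.43 in BAT 1, 3 and 4, 10.45, 10.42 and 10.69 in CL 1, 3 and 4, and 10.24 and 10.78 in RS 3 and 4. The RG and WAT arrays did not overlap, and neither did CL and WAT, whereas BAT and RS reached into the WAT range. RG exceeded WAT by 0.91 ± 0.267 (SE, n = 3 and 4), or 1.88-fold (adjusted p = 0.0398). The differences of 0.55 in BAT, 0.72 in CL and 0.71 in RS did not pass the test (adjusted p = 0.107, 0.0585 and 0.099). The RG call was lost when any of CL 1, RG 2, RG 3, RG 4, WAT 2 or WAT 4 was left out, with values of 0.91, 0.98, 0.95, 0.80, 0.94 and 0.60. Scaled to the adipocyte markers, the other differences from WAT turned to -0.11 in BAT, -0.10 in CL and -0.37 in RS. That scaling takes the same amount off every gene in a comparison, so positive differences of this size reverse by construction. By group mean (± SD) the order was RG 10.71 ± 0.187, CL 10.52 ± 0.148, RS 10.51 ± 0.382, BAT 10.34 ± 0.085, WAT 9.80 ± 0.646, and no neighbours in it differed by the test.

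Lipe encodes hormone-sensitive lipase, the main diglyceride lipase and a target of protein kinase A. On WAT 1 to 4 it read 9.73, 9.00, 9.73 and 7.72, against 9.76, 9.96 and 9.82 in BAT and 9.77, 9.72 and 10.13 in CL. In RS it read 9.61 and 10.33, and in RG 10.14, 9.96 and 10.42. WAT 1 and WAT 3 sat at the lower edge of the UCP1-positive arrays, with WAT 2 and WAT 4 well below. No difference passed the test. The widest was RG over WAT at 1.13 ± 0.366 (95% interval 0.35 to 1.91, adjusted p = 0.0579), and without WAT 4 it was 0.69 (adjusted p = 0.0953). With adipocyte marker scaling it was 0.08. The order of means (± SD) was RG 10.17 ± 0.232, RS 9.97 ± 0.509, CL 9.87 ± 0.224, BAT 9.85 ± 0.103, WAT 9.04 ± 0.948.

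Mgll, which completes the sequence by cleaving monoglyceride, was higher in CL. Its values were 7.70, 7.12, 7.64 and 6.15 in WAT and 8.02, 8.14 and 8.36 in CL. The means of the other groups lay between, with 7.86, 8.02 and 7.85 in BAT, 7.61 and 7.96 in RS, and 7.87, 7.47 and 8.24 in RG. CL and WAT did not overlap, nor did BAT and WAT, while RS and RG did. CL exceeded WAT by 1.02 ± 0.298 (2.03-fold, adjusted p = 0.0223), and without WAT 4 by 0.69 (adjusted p = 0.0398). Without CL 4 the difference was 0.93 and no longer passed. BAT over WAT was 0.76 at an adjusted p = 0.0501. With arrays scaled to their adipocyte markers, CL over WAT was 0.20 and not called. The means (± SD) ran CL 8.17 ± 0.172, BAT 7.91 ± 0.0954, RG 7.86 ± 0.385, RS 7.79 ± 0.247, WAT 7.15 ± 0.717, with no called difference between neighbours.

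Pnpla3 encodes adiponutrin, a close relative of ATGL that binds the same coactivator. It was the most scattered of the lipases, at 5.89, 4.72, 5.79 and 3.86 in WAT, 4.94, 4.84 and 6.45 in CL and 6.91 and 5.95 in RS. BAT was even, at 5.46, 5.67 and 5.65, and RG read 6.05, 5.72 and 6.04. The RS arrays lay above every WAT array, by 1.36 ± 0.509 on average (95% interval 0.28 to 2.45, adjusted p = 0.0654), and no difference of Pnpla3 passed the test. That RS difference was called after quantile normalisation (1.65, adjusted p = 0.0468), and read 0.28 with adipocyte marker scaling and 0.48 without both WAT 4 and RS 3. Without WAT 4 the RS difference was 0.96 (adjusted p = 0.141). The means (± SD) ran RS 6.43 ± 0.679, RG 5.94 ± 0.188, BAT 5.59 ± 0.116, CL 5.41 ± 0.902, WAT 5.06 ± 0.962.

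Abhd5, the coactivator of ATGL, also known as CGI-58, gave no call. WAT read 8.47, 7.69, 8.53 and 7.44, BAT 7.93, 8.09 and 8.03, and CL 8.11, 8.10 and 8.55. RS read 8.52 and 8.51, and RG 8.82, 8.37 and 8.56. The WAT values spanned most of the range of all other groups. BAT and WAT had nearly equal means, 8.02 and 8.03, with a 95% interval of the difference from -0.52 to 0.49. RG over WAT was 0.55 (adjusted p = 0.146) and turned to -0.49 with adipocyte marker scaling, which also turned RS from 0.48 and CL from 0.22 to -0.60 each. From the top, the means (± SD) were RG 8.58 ± 0.226, RS 8.52 ± 0.00707, CL 8.25 ± 0.257, WAT 8.03 ± 0.55, BAT 8.02 ± 0.0808.

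G0s2, the inhibitor of ATGL, differed in more comparisons than any other of the 10 genes. WAT read 6.37, 5.73, 6.27 and 5.79, BAT 7.71, 7.53 and 7.45, and CL 7.35, 7.38 and 7.99. RS gave 7.58 and 6.87, and RG 6.88, 6.42 and 6.47. No WAT array reached any UCP1-positive array, and RG lay closest to WAT. The gene was 2.87-fold higher in BAT than in WAT (1.52 ± 0.226, adjusted p = 0.000187), 2.89-fold higher in CL (1.53 ± 0.226, adjusted p = 0.00058) and 2.27-fold higher in RS (1.19 ± 0.257, adjusted p = 0.00649). RG over WAT was 0.55 ± 0.226 and did not pass (adjusted p = 0.126). WAT 4 mattered little here, and without it the 4 differences were 1.44, 1.45, 1.10 and 0.47. The BAT and CL calls held in all 15 fits that left out 1 array, while the RS call was lost without RS 3 (0.83). Scaled to the adipocyte markers, the differences were 0.87, 0.71, 0.10 and -0.49 in BAT, CL, RS and RG, none of them called.

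Among the UCP1-positive groups G0s2 was lower in RG. Its difference from BAT was -0.97 ± 0.242 (adjusted p = 0.0174), in a comparison where 8.42% of all probe sets were called lower. CL exceeded RG by 0.98 ± 0.242 (adjusted p = 0.0426), where 1.65% of all probe sets were called higher. In neither case did the arrays overlap. The call against BAT was lost without BAT 1 (-0.90), RG 3 (-0.89) or RG 4 (-0.91). The call of CL over RG was lost in the fits without BAT 3, CL 1, CL 3, CL 4, RG 2, RG 3, RG 4, WAT 2 or WAT 3, with differences from 0.78 to 1.13 over the 15. The means (± SD) ran CL 7.57 ± 0.361, BAT 7.56 ± 0.133, RS 7.22 ± 0.502, RG 6.59 ± 0.252, WAT 6.04 ± 0.327, and no pair of neighbours in that order differed by the test.

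The inhibitor and its lipase were also set against each other on each array, a measure chosen after the values were seen. Levels of different probe sets cannot be compared, so only the change of G0s2 minus Pnpla2 between arrays is read. It was -3.70, -4.17, -4.08 and -3.08 in WAT, -2.63, -2.73 and -2.98 in BAT, and -3.10, -3.04 and -2.70 in CL. RS gave -2.66 and -3.91, and RG -3.69, -4.21 and -4.45. BAT lay above every WAT and RG array, and CL above every RG array. The mean was -2.78 ± 0.18 (SD, n = 3) in BAT, -2.95 ± 0.216 in CL, -3.28 ± 0.884 in RS (n = 2), -3.76 ± 0.495 in WAT (n = 4) and -4.12 ± 0.389 in RG. BAT exceeded RG by 1.34 and CL exceeded RG by 1.17, both at p = 0.1 in the two-sided exact permutation test, the smallest that 3 against 3 arrays allow. WAT minus BAT was -0.98 at an exact p = 0.0571, the smallest for 4 against 3. Over the 10 pairs the lowest Benjamini-Hochberg value of the exact test was 0.286. The RS arrays spanned from the BAT values to the RG values.

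**Figure D3:**
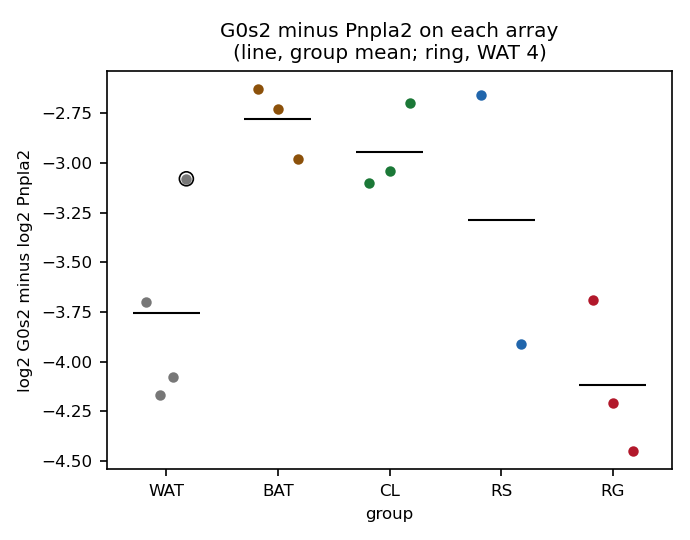
Difference of log2 G0s2 and log2 Pnpla2 (vertical axis) by group, 1 point per array, with the group mean as a line and a ring around WAT 4. BAT (-2.98 to -2.63) and CL (-3.10 to -2.70) lie above all RG arrays (-4.45 to -3.69).

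Hilpda, a second inhibitor of ATGL and a target of hypoxia-inducible factors, went the other way. It read 5.81, 5.40, 5.88 and 5.78 in WAT and 4.39, 5.01 and 5.32 in BAT. CL read 5.35, 5.08 and 4.96, RS 5.33 and 5.74, and RG 5.79, 5.74 and 4.98. WAT lay above all BAT and CL arrays, while RS and RG overlapped with it. BAT differed from WAT by -0.81 ± 0.24 (1.75-fold lower, adjusted p = 0.0138), and the other 3 differences, -0.59 in CL, -0.18 in RS and -0.21 in RG, did not pass. Without BAT 1, the lowest array, the difference was -0.55 and no longer passed, and neither did the -0.46 after quantile normalisation (adjusted p = 0.2). The RS difference was 0.17 after quantile normalisation and 0.02 without RS 3, and the RG difference 0.05 without RG 4. Scaling to the adipocyte markers takes the same amount off every gene in a comparison. Under it 17.3%, 18.7%, 31.1% and 37.7% of all probe sets were called in BAT, CL, RS and RG, nearly all lower. Hilpda was called lower in all 4 groups, at -1.47, -1.41, -1.26 and -1.26. The order of means (± SD) was WAT 5.72 ± 0.216, RS 5.54 ± 0.29, RG 5.50 ± 0.454, CL 5.13 ± 0.2, BAT 4.91 ± 0.474, and neighbours did not differ by the test. WAT 4 was not unusual for this gene, and without it the BAT difference was -0.79.

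Of 14 other hypoxia targets, 4 were higher and 3 lower in BAT than in WAT, and in CL 2 were higher and 2 lower. In RS none was higher and 3 were lower, and in RG 2 were higher and 2 lower. The total was 4 in BAT without BAT 1, 1 in CL without CL 4 or WAT 4 and 2 without WAT 2, 1 in RS without WAT 2 or WAT 4, and in RG 1 without RG 2 and 2 without RG 3. The list was called in 7 of 14 genes in BAT and in 28.6%, 21.4% and 28.6% of them in CL, RS and RG, against 44.0%, 25.2%, 21.4% and 11.4% of all probe sets, so in BAT, CL and RS it was near the background. Slc2a1, the glucose transporter GLUT1, was lower in BAT by the test (-1.20, adjusted p = 0.000453) in CL (-1.31, adjusted p = 0.000749) and in RS (-0.70, adjusted p = 0.0425; lost without CL 1, RG 3, RS 3, RS 4, WAT 3 or WAT 4). Adm, which encodes adrenomedullin, was lower in BAT (-1.33, adjusted p = 0.00383), whereas Egln1, an oxygen-sensing prolyl hydroxylase, was higher there (1.10, adjusted p = 0.000872), in CL (0.75, adjusted p = 0.0167; lost without CL 3, CL 4 or WAT 4) and in RG (0.70, adjusted p = 0.0401; lost without WAT 2, WAT 3, WAT 4 or any RG array). With adipocyte marker scaling Egln1 read 0.44, -0.08 and -0.35 there and was not called.

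Lipa encodes lysosomal acid lipase, which breaks down lipid delivered to lysosomes rather than at the droplet surface and is abundant in macrophages as well. Its values were 6.76, 7.42, 6.69 and 7.76 in WAT, 7.74, 7.91 and 6.94 in BAT and 7.11, 7.15 and 6.89 in CL. They were 6.95 and 5.68 in RS and 6.15, 6.20 and 6.70 in RG. BAT held the highest array and RS the lowest, and every BAT array exceeded every RG array. RG was lower than BAT by the test (-1.18 ± 0.344, 2.27-fold, adjusted p = 0.0343). The call was lost without BAT 1 (-1.07), BAT 3 (-0.99), RG 2 (-1.08) or RG 3 (-1.10), and after median centring (-1.09, adjusted p = 0.0533). Of 19 macrophage markers, 2 were higher in RG than in BAT and none lower, and the part of macrophages in the Lipa difference was not tested. Against WAT no difference passed, with 0.37 in BAT (adjusted p = 0.358), -0.84 in RS (adjusted p = 0.105) and -0.81 in RG (adjusted p = 0.115). Adipocyte marker scaling takes the same amount off every gene in a comparison. Under it 31.1% of all probe sets in RS and 37.7% in RG were called, nearly all lower. Lipa was called lower there too, at -1.92 in RS (adjusted p = 0.00443) and -1.85 in RG (adjusted p = 0.00178). The RS difference of Lipa was -1.48 without RS 3, -1.28 without both WAT 4 and RS 3, and -0.21 without RS 4. From highest to lowest the means (± SD) were BAT 7.53 ± 0.518, WAT 7.16 ± 0.519, CL 7.05 ± 0.14, RG 6.35 ± 0.304, RS 6.31 ± 0.898, without a called difference between neighbours.

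Other lysosomal genes were lower in the UCP1-positive groups where Lipa was not called. Of 16 partners, 6 were lower in BAT, 6 in CL, 3 in RS and 5 in RG than in WAT, and none was higher. These were 37.5%, 37.5%, 18.8% and 31.2% of the list, against 16.4%, 9.97%, 10.3% and 6.24% of all probe sets called lower. Without RS 3 the RS count was 9, without CL 1 the CL count was 3, and without RG 2, RG 3, RG 4 or WAT 4 the RG count was 3. Hexa, a subunit of beta-hexosaminidase, differed by -1.59, -1.33, -1.25 and -1.30 in BAT, CL, RS and RG (adjusted p = 4.81e-05, 0.000514, 0.002 and 0.00112). Gla, alpha-galactosidase, differed by -1.42, -1.19, -1.47 and -1.42 in that order, all called (in RS lost without RS 4). These genes and the macrophage markers were lower in the same comparisons, and the part of macrophages was not tested. In RG against BAT none of the 16 was called in either direction.

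Prkar2b was higher than WAT in all 4 UCP1-positive groups. It encodes RIIbeta, the regulatory subunit that holds protein kinase A inactive until cyclic AMP binds, and the main regulatory subunit of adipose tissue. WAT read 8.10, 7.31, 8.02 and 6.04, BAT 9.07, 9.14 and 9.09, and CL 8.98, 9.10 and 9.29. RS gave 8.35 and 9.01, and RG 8.84, 8.60 and 9.06. Every UCP1-positive array exceeded every WAT array, and the BAT arrays were the most even. The means (± SD) ran CL 9.12 ± 0.156, BAT 9.10 ± 0.0361, RG 8.83 ± 0.23, RS 8.68 ± 0.467, WAT 7.37 ± 0.954, and of these neighbours RS and WAT differed. The difference was 1.73 ± 0.362 in BAT (3.32-fold, adjusted p = 0.00185), 1.76 ± 0.362 in CL (3.38-fold, adjusted p = 0.004), 1.31 ± 0.411 in RS (2.48-fold, adjusted p = 0.0347) and 1.47 ± 0.362 in RG (2.76-fold, adjusted p = 0.0185). Without WAT 4 the differences shrank to 1.29, 1.31, 0.87 and 1.02 and still passed (adjusted p = 0.000857, 0.0021, 0.0333 and 0.0162). The RS call was lost without RS 3 (1.64), RS 4 (0.98) or WAT 2 (1.29), and the RG call without RG 2 (1.46) or RG 4 (1.35). Scaled to the adipocyte markers the differences kept their sign and were not called, at 1.08 in BAT, 0.93 in CL, 0.23 in RS and 0.42 in RG. Between UCP1-positive groups no difference passed the test.

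Of the other protein kinase A subunits, the catalytic subunit Prkaca was also higher in all 4 groups, by 0.96 ± 0.241 in BAT (adjusted p = 0.0055), 0.92 in CL (adjusted p = 0.0132), 0.82 in RS (adjusted p = 0.0447) and 1.18 in RG (adjusted p = 0.00727). None of these was called after adipocyte marker scaling, and that in RS turned to -0.26. The CL call was lost without CL 4, and the RS call without CL 1, RS 3, RS 4, WAT 2, WAT 4 (0.61, adjusted p = 0.098) or any RG array. The second catalytic subunit, Prkacb, was lower in RS (-0.64, adjusted p = 0.0241; lost without RS 4, WAT 2 or WAT 3) and read -0.25, -0.36 and -0.15 in BAT, CL and RG. Among the regulatory subunits, Prkar1a differed by -0.19, -0.02, -0.45 and 0.01 in BAT, CL, RS and RG, Prkar1b by -0.10, -0.16, -0.20 and -0.15, and Prkar2a by -0.26, -0.28, -0.35 and -0.30. None of these passed the test. Prkar1b and Prkar2a were dim, between the percentiles 34.9 and 58.9 and between 36.2 and 59.8 of their arrays, so their differences are less certain. Of the 4 regulatory subunit genes, Prkar2b was the one called against WAT. Whether it differed from the others was not tested.

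**Figure D4:**
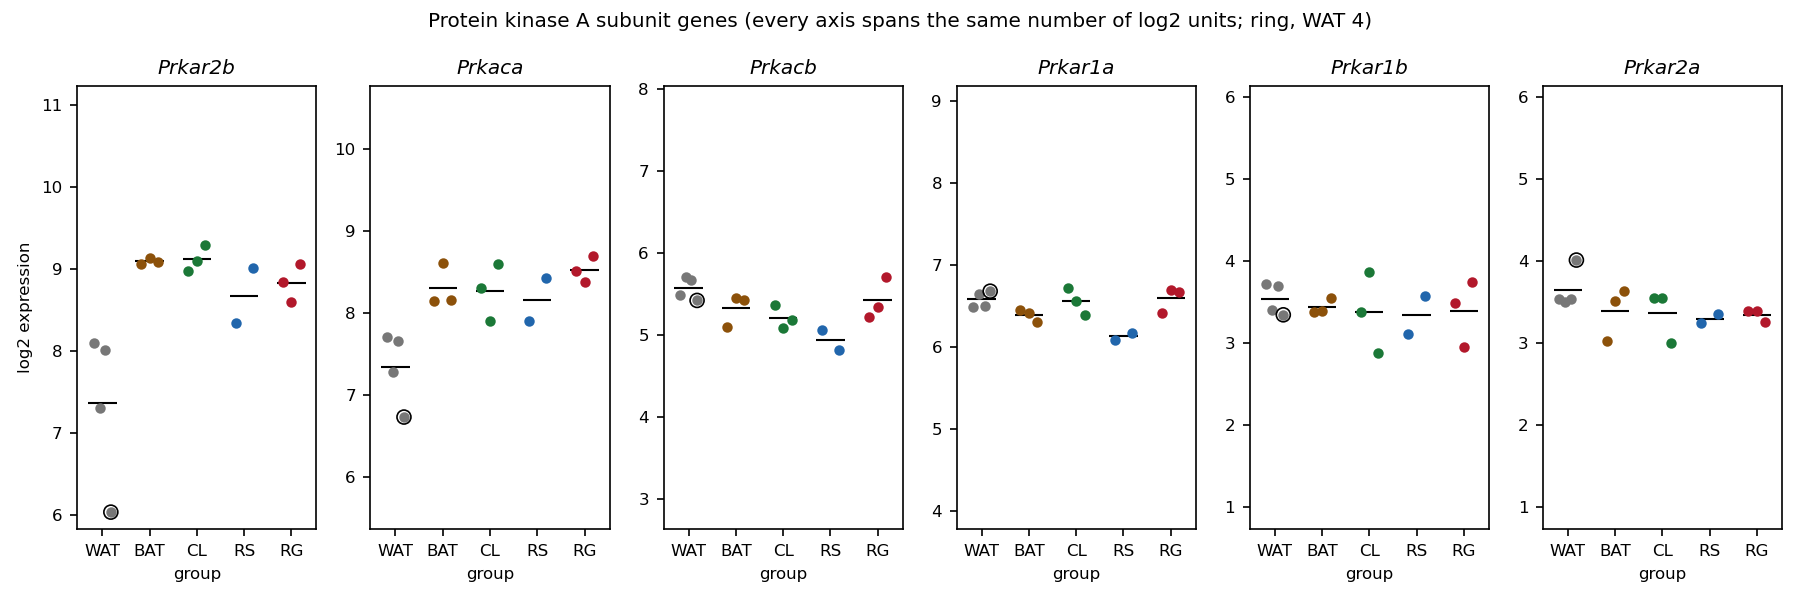
Log2 expression of 6 protein kinase A subunit genes by group, 1 point per array, with the group mean as a line and a ring around WAT 4; every vertical axis spans the same number of log2 units. Prkar2b and Prkaca have higher means in all UCP1-positive groups, while Prkar1a, Prkar1b and Prkar2a stay within 0.45 of their WAT means. Prkar1b and Prkar2a are dim.

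Fabp12, a little-studied member of the fatty acid binding protein family, was dim, between the percentiles 20.9 and 59.9 of its arrays. WAT read 3.08, 3.02, 2.92 and 2.63, BAT 3.31, 3.73 and 3.88, and CL 3.57, 3.78 and 3.47. RS gave 2.41 and 3.46, and RG 3.01, 3.39 and 2.79. BAT and CL lay above every WAT array, whereas the RS arrays spread from the lowest of all to just under CL. It was higher in BAT by 0.73 ± 0.233 (adjusted p = 0.0206) and in CL by 0.69 ± 0.233 (adjusted p = 0.0408; -0.13 when scaled to the adipocyte markers), and read 0.02 in RS and 0.15 in RG. The BAT call was lost without BAT 3 (0.68), BAT 4 (0.61) or WAT 4 (0.63). The CL call was lost without CL 1, CL 3, CL 4, RG 2, WAT 2, WAT 3 or WAT 4, with differences from 0.60 to 0.76 over all 15 fits. By mean (± SD) the groups stood at BAT 3.64 ± 0.295, CL 3.61 ± 0.158, RG 3.06 ± 0.304, RS 2.94 ± 0.742, WAT 2.91 ± 0.2, and neighbours did not differ by the test.

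Within the family, 6 of 8 measured relatives were higher in BAT than in WAT, 2 in CL, 1 in RS and 3 in RG, and none was lower. As a share of the list this was 75.0%, 25.0%, 12.5% and 37.5%, against 27.6%, 15.2%, 11.1% and 5.19% of all probe sets called higher. The CL count was 1 without CL 1, and the RS count 0 without RS 4 and 2 without RG 3 or WAT 4. Of the 8, 2 had a mean of at least 5. Fabp4, the abundant fatty acid carrier of adipocytes, was higher in all 4 groups, by 0.80 in BAT, 0.86 in CL, 0.72 in RS and 0.67 in RG (adjusted p = 0.00157, 0.00251, 0.0144 and 0.0178). Scaled to the adipocyte markers, which include it, Fabp4 read 0.14 in BAT and 0.03 in CL. It turned to -0.36 in RS and -0.38 in RG, and none of these was called. The RG call was also lost without RG 3, RG 4 or WAT 4, and the RS call without RS 4. Fabp5, the epidermal form, passed in no group, at -0.13, 0.58, -0.06 and 0.32.

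**Figure D5:**
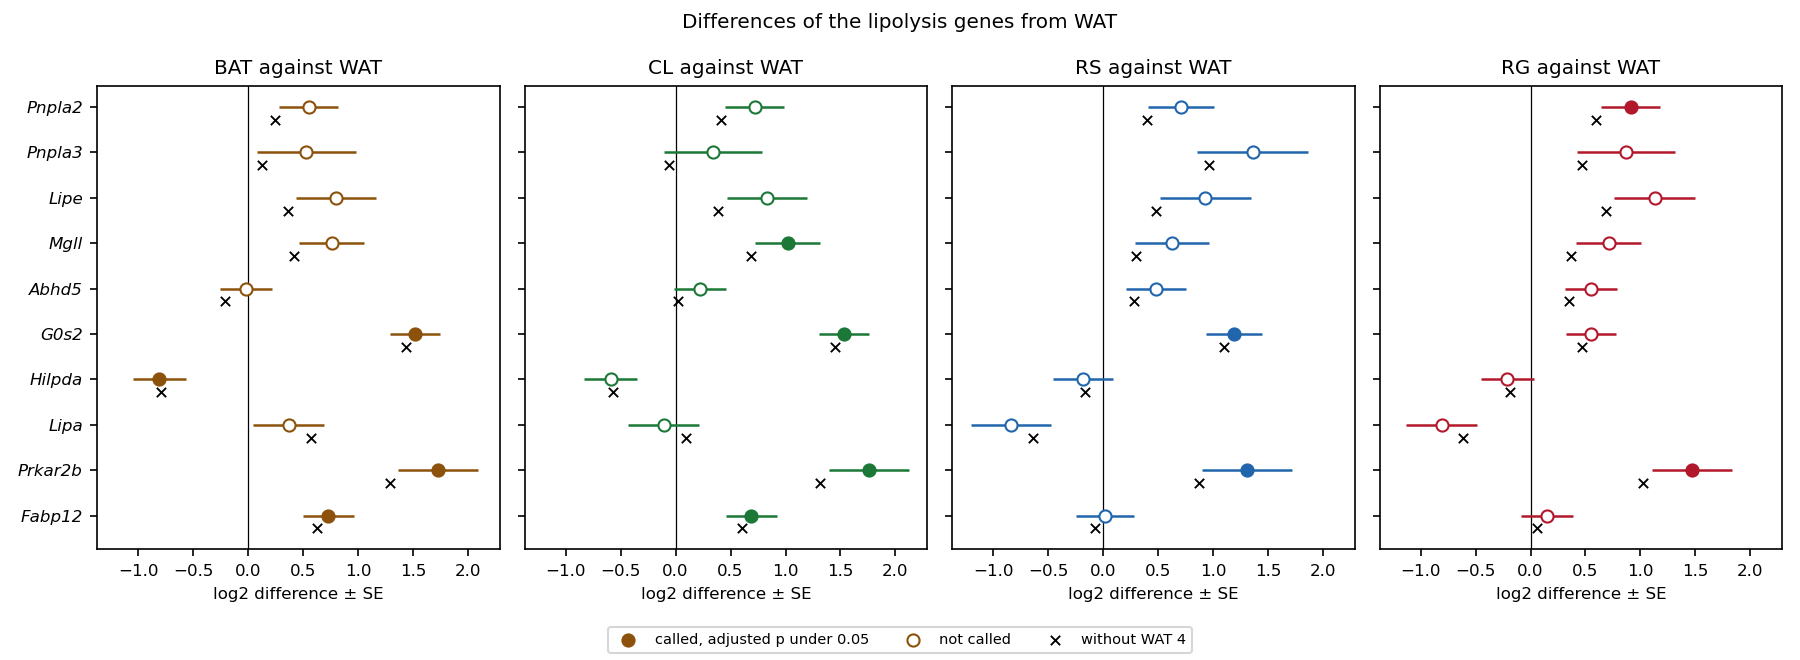
Log2 difference from WAT of the 10 genes in BAT, CL, RS and RG (points, bars are the SE), filled where the limma adjusted p was under 0.05, with the value without WAT 4 as a cross. G0s2 is called in BAT, CL and RS and Prkar2b in all panels, Hilpda is called lower in BAT, and the crosses of Pnpla2, Lipe, Mgll and Prkar2b lie left of their points.

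Between the UCP1-positive groups, the 3 calls were those of G0s2 and Lipa given above. None of the 10 genes passed the test between CL and BAT (2.05% of all probe sets called), RS and BAT (3.67%), RS and CL (1.27%) or RS and RG (0.682%). At an unadjusted p under 0.05 in limma, 0, 3, 1 and 1 of the genes passed there. The share of all probe sets at this looser threshold was not computed, so these counts cannot be set beside the shares above. The RS comparisons rest on 2 arrays that often lay apart, such as 6.91 and 5.95 for Pnpla3 and 6.95 and 5.68 for Lipa. Without RS 3 or without RS 4, 1 gene was called in RS against BAT, and without RS 4 1 gene in RS against CL.

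Around these genes, 81 others of the pathway were measured in 6 lists, from droplet coat proteins to control of the lipases. Of these, 28 were higher and 12 lower in BAT than in WAT (44.0% of all probe sets called either way), 24 and 10 in CL (25.2%), 19 and 6 in RS (21.4%), and 25 and 4 in RG (11.4%). Their median difference was 0.43, 0.31, 0.45 and 0.31, and 54 of the 81 had a mean over 5. Earlier results of these data were known when these lists were chosen, so the shares given for them are a description, not a test. Without WAT 4 the totals of 40, 34, 25 and 29 became 38, 29, 19 and 21. Without CL 4 the CL total was 17, without RS 3 or WAT 2 the RS total was 12 or 15, and without RG 2, RG 3, RG 4 or WAT 2 the RG total was 12, 18, 9 or 18.

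Droplet coat proteins decide how far lipases reach the fat. Of 8, 5 were higher in BAT, 5 in CL, 2 in RS and 5 in RG, and none was lower. That is 62.5%, 62.5%, 25.0% and 62.5% of the list, where 27.6%, 15.2%, 11.1% and 5.19% of all probe sets were called higher. The CL count was 2 without CL 4 and 3 without CL 1, CL 3, WAT 2 or WAT 3, and the RS count 1 without CL 1, RG 2, RG 3, RS 4 or WAT 2. The RG count was 1 without RG 4, 2 without RG 2, RG 3 or WAT 2, and 3 without BAT 1 or CL 1. Cidea, a droplet protein of brown fat that promotes droplet fusion, was higher by 4.66, 4.03, 3.05 and 2.83 in BAT, CL, RS and RG (adjusted p = 4.63e-06, 4.59e-05, 0.000914 and 0.000975). Plin5, the coat protein of oxidative tissues, which ties droplets to mitochondria, was higher by 1.92 in BAT, 1.71 in CL and 1.02 in RG (adjusted p = 4.29e-05, 0.000327 and 0.0118), and read 0.51 in RS. In RG it was lost without RG 4. With adipocyte marker scaling Plin5 was called in BAT (1.26) and not in CL (0.89) or RG (-0.02). Plin1, the main coat protein of white adipocytes, which holds Abhd5 at rest, was called in RS (1.45, adjusted p = 0.0411) and RG (1.39, adjusted p = 0.0433). For Plin1, WAT 4 read 5.82, while WAT 1 to 3 lay between 7.57 and 8.27. Without WAT 4 the differences were 0.91 and 0.85, still called, and with adipocyte marker scaling 0.37 and 0.35, not called. The Plin1 calls were lost without CL 1, RG 2, RG 3 or WAT 2 in both groups, without RS 3 or RS 4 in RS, and without any BAT array, CL 3 or RG 4 in RG.

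Receptors set the signal. Of 14, 3 were higher and 3 lower in BAT, 1 and 2 in CL, 3 and none in RS, and 5 and 1 in RG. The called share was 42.9%, 21.4%, 21.4% and 42.9%, against 44.0%, 25.2%, 21.4% and 11.4% of all probe sets, which in BAT, CL and RS is the background. The RS total was 1 without RS 3 and 5 without WAT 1, and the RG total 1 without RG 2, 2 without RG 4 and 3 without RG 3 or WAT 2. Adrb1, a beta-adrenergic receptor, was higher by 2.29, 1.32, 1.05 and 0.84 in BAT, CL, RS and RG (adjusted p = 6.24e-07, 0.000182, 0.00211 and 0.0058), in all 15 fits that left out 1 array. Under adipocyte marker scaling it was called in BAT alone and read 0.50 in CL, -0.03 in RS and -0.21 in RG. Adrb3, the receptor that CL316243 activates, was called in RS (1.67, adjusted p = 0.026) and RG (1.42, adjusted p = 0.0451), and read 0.58 in BAT and 0.66 in CL. WAT 4 read 5.48 here, while WAT 1 to 3 lay between 7.29 and 7.96. Without WAT 4 the RS and RG differences of Adrb3 were 1.12 and 0.87 (adjusted p = 0.014 and 0.0419). Adipocyte marker scaling left 0.59 and 0.37, neither called. The Adrb3 call was lost in RS without RS 3 or RS 4, and in RG without any BAT or RG array, CL 1, CL 3 or WAT 2. Hcar2, a receptor through which ketone bodies and niacin restrain lipolysis, was lower in BAT (-0.89, adjusted p = 0.00614) and CL (-0.83, adjusted p = 0.0161; lost without CL 1 or CL 3).

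Between the receptors and the kinase, 5 of 22 genes of the cyclic AMP cascade were higher and 3 lower in BAT, 5 and 3 in CL, 3 and 5 in RS, and 5 and 2 in RG. The called share was 36.4%, 36.4%, 36.4% and 31.8%, against 44.0%, 25.2%, 21.4% and 11.4% of all probe sets, so in BAT it was below the background. The CL total was 4 without CL 4, the RS total 3, 4 and 5 without RS 3, WAT 2 and WAT 4, and the RG total 3, 2 and 4 without RG 2, RG 4 and WAT 4. Adcy3, an adenylate cyclase that makes cyclic AMP, was higher in BAT (2.43, adjusted p = 6.68e-05) and CL (1.70, adjusted p = 0.00185; 0.88 and not called with adipocyte marker scaling). Pde4d, a phosphodiesterase that removes it, was higher in the same comparisons (1.32, adjusted p = 7.52e-05, and 0.99, adjusted p = 0.0014) and in RG (0.79, adjusted p = 0.0101; lost without RG 4), and with adipocyte marker scaling read 0.67, 0.16 and -0.25 there and was not called. Gnai2, an inhibitory G protein subunit, was lower by test in every UCP1-positive group, at -1.01, -0.79, -1.04 and -0.95 in BAT, CL, RS and RG (adjusted p = 0.000915, 0.00865, 0.00496 and 0.00673; in RS lost without RS 3). Gnai2 is also expressed in immune cells, and the macrophage markers were lower in the same groups. The part of macrophages in the Gnai2 differences was not tested.

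Of 15 other neutral lipid hydrolases, 7 were higher and 2 lower in BAT, and 7, 6 and 5 were higher and none lower in CL, RS and RG. Of the 15, 8 had a mean over 5. Dim genes among those called higher were Pnpla5 (mean 3.25) in BAT, CL and RS, Pnpla1 (2.63) in BAT and RS, and Aadac (1.98) in BAT. The RS calls of Pnpla5 and Pnpla1 were lost after quantile normalisation. The called share was 60.0%, 46.7%, 40.0% and 33.3%, against 44.0%, 25.2%, 21.4% and 11.4% of all probe sets. Without CL 4 the CL count was 3, without RS 3 the RS count was 2, and the RG count was 0 without RG 2, 1 without RG 4, 2 without WAT 2, and 3 without BAT 3, CL 1, RG 3 or WAT 4. Abhd6, a second monoglyceride lipase, was higher by 1.65, 1.51, 1.43 and 1.13 in BAT, CL, RS and RG (adjusted p = 0.000352, 0.00164, 0.00599 and 0.0154; lost in RS without RS 3 and in RG without RG 2). Its values were 4.90 to 5.92 in WAT and 6.21 to 7.31 on the UCP1-positive arrays, with no overlap. With adipocyte marker scaling the differences of Abhd6 were 0.99, 0.69, 0.34 and 0.09, and none was called. Ddhd2, a lipase of the phospholipase A1 family, was higher in BAT (1.76, adjusted p = 0.00014), CL (1.36, adjusted p = 0.00203) and RG (0.84, adjusted p = 0.0412; lost without BAT 3, CL 1, CL 3, WAT 2, WAT 4 or any RG array). With adipocyte marker scaling these read 1.10, 0.53 and -0.20, and none was called. Lpl, which captures circulating triglyceride, was higher in CL (0.82, adjusted p = 0.0108), RS (0.77, adjusted p = 0.0303) and RG (0.80, adjusted p = 0.022), and with adipocyte marker scaling read -0.01, -0.32 and -0.25. The Lpl call was lost in CL without CL 4, in RS without RS 3, WAT 2 or WAT 4, and in RG without RG 2, RG 4, WAT 2 or WAT 4.

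Beyond lipolysis itself, 4 of 9 genes that handle fatty acids and glycerol were higher and 1 lower in BAT, 4 and 1 in CL, 3 and 1 in RS, and 2 and 1 in RG. The called share was 55.6%, 55.6%, 44.4% and 33.3%, against 44.0%, 25.2%, 21.4% and 11.4% of all probe sets. The CL total was 3 without CL 4, the RS total 2 without RS 3 or RS 4, and the RG total 1 without RG 4 and 5 without WAT 1 or WAT 3. Gk, glycerol kinase, which lets brown fat reuse the glycerol that lipolysis frees, was higher in BAT (1.89, adjusted p = 0.000201) and CL (1.95, adjusted p = 0.000542; 1.12 and not called with adipocyte marker scaling). Got2, which serves as a mitochondrial aminotransferase and was also described as a fatty acid binder, was the gene lower in each group, at -1.17, -0.92, -1.07 and -1.96 in BAT, CL, RS and RG (adjusted p = 0.0012, 0.0106, 0.0113 and 0.00023; lost in CL without CL 4 and in RS without RS 4). Of 13 genes that control lipase turnover and transcription, 4 were higher and 3 lower in BAT, 2 and 4 in CL, and 2 and 3 were higher and none lower in RS and RG. The called share of these was 53.8%, 46.2%, 15.4% and 23.1%, against the same 44.0%, 25.2%, 21.4% and 11.4%, and in RS thus below the background. Ppara, a nuclear receptor of fatty acid oxidation, was higher in BAT (2.87, adjusted p = 2.71e-05), CL (2.08, adjusted p = 0.000747) and RG (1.45, adjusted p = 0.0112; lost without RG 4, and 0.41 with adipocyte marker scaling). Irf4, a transcription factor that raises Pnpla2 and Lipe in fasting, was lower in BAT (-1.06, adjusted p = 0.00189) and CL (-0.87, adjusted p = 0.012; lost without CL 1). In this list the CL total was 3 without CL 1 or CL 4, and the RS total 1 in each fit without BAT 1, WAT 2, WAT 3, WAT 4 or any CL or RG array.

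For each gene called at least once, the 3 genes with the closest pattern were found as those with the smallest root mean square difference of centred log2 profiles over the 15 arrays. For Pnpla2 these included Car3 (0.131) and Mdh1 (0.134), where Pnpla2 itself varied by 0.466 about its mean on the same scale. For Mgll they were Aifm2 (0.126), Mdh1 (0.155) and Kyat3 (0.166), and for Prkar2b Acad11 (0.174), Agpat2 (0.185) and Acadm (0.211), with own spreads of 0.52 and 0.851. For G0s2 the distances were 0.256 for Hemk1, 0.259 for Btbd35f14 and 0.259 for Letm1 against a spread of 0.689. For Lipa they were 0.284 for Slc40a1, 0.32 for Adssl1 and 0.343 for Dhrs9 against 0.604. Hilpda was closest to Zfp281 (0.168), Cdc5l (0.183) and Cybc1 (0.185) and Fabp12 to Rad51ap2 (0.188), Trav14-2 (0.21) and Ndrg3 (0.22), with spreads of 0.414 and 0.422. The arrays share the groups and the low adipocyte level of WAT 4, so closeness is a description of these arrays.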

How the data were processed

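The deposited table of the authors held a log2 value for each of 25206 probe sets on each of 15 one-colour Affymetrix arrays. Per the submitters' processing notes, RMA, affy 1.36.1 and Affymetrix Expression Console were used, with no order or settings; the probe-set definition and genome build are not given in the sources used here. Probe sets were named by Entrez number through RefSeq: 23740 got a symbol and 1466 did not. Array medians lay between 3.33 and 3.47, no value was missing, and the number of arrays limits the precision.

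Group differences were fitted in R 4.3.3 by limma 3.58.1 (lmFit, contrasts.fit, eBayes), with all 15 arrays, a mean per group and 10 residual degrees of freedom, in two-sided tests at a threshold of 0.05 after adjustment by Benjamini-Hochberg across every probe set. A fold is 2 to the power of the log2 difference. The test was checked on simulated data in which each gene had the same spread in every group. That check does not cover groups of unequal spread, such as WAT and BAT for Lipe.

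Named were the 10 genes, in each of 9 pathway lists the 3 genes with the smallest p in each comparison with WAT, fixed partners, and the 3 closest patterns, leaving out predicted, olfactory and small RNA genes. The 10 genes and the lists were chosen with earlier results of these data known. Fabp3 and the macrophage marker Lyz2 had no row. Some genes that this rule names are not reported here. Alternatives were median centring, quantile normalisation, a minimum mean of 5, only the groups compared, trend and robust options, a replicate block, leaving out arrays, and, added after the data were seen, scaling each array to its mature adipocyte markers other than Plin1.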

Additional observations from a re-analysis of the deposited data

Results flagged for a closer look

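In the 4 WAT arrays, the gap of the highest or lowest array to the next was set against the whole range of the group, for the 10 lipolysis genes and the other named genes, 66 in all. None of the 10 genes stood out by Dixon's 95% limit, and 4 others did, each through WAT 4; chance alone flags about 1 in 20 such groups. WAT 4 read 4.01 for Prkar2a, a regulatory subunit of protein kinase A (nearest array 3.54), and 5.79 for P4ha1, a collagen hydroxylase (nearest 5.20). It read 4.99 for Npr3, the clearance receptor of natriuretic peptides (nearest 6.59), and 2.98 for Ppara (nearest 3.98). The same array had the lowest mature adipocyte mean and the highest macrophage mean of the WAT arrays, 7.43 and 7.88. The part of these in the 4 values was not tested.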

How the results depend on the processing

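Of the 15 called differences, 15 stayed called with trend and robust options, 14 without both WAT 4 and RS 3, 13 with a minimum mean of 5 (Fabp12 was not tested there), 12 with median centring, 12 with only the 2 groups compared, 11 with quantile normalisation, 6 with the replicate block and 1 with adipocyte marker scaling. The number of lipolysis genes called became 1 in BAT and 1 in CL against WAT, 0 in RG against BAT and 0 in CL against RG with adipocyte marker scaling. In RS and RG against WAT it stayed at 2 under that scaling, but of other genes, Hilpda and Lipa, both lower. There 31.1% and 37.7% of all probe sets were called, nearly all lower. Only the 2 groups gave 1 in RS and 0 in RG against WAT, quantile normalisation 1 in RG against WAT, median centring 1 in RG against BAT and 0 in CL against RG, and leaving out both WAT 4 and RS 3 gave 1 in RS against BAT. Of the 81 other pathway genes, 25 were called in BAT with the minimum mean of 5, which tests fewer genes, 21 in BAT and 19 in CL with adipocyte marker scaling, 12 in RS with only the 2 groups, and 9 in RS without both arrays. Pnpla2 reversed against WAT under adipocyte marker scaling (-0.11, -0.10, -0.37 and -0.14 in BAT, CL, RS and RG), as did Fabp12 in CL (-0.13); with differences not called, 18 of 40 from WAT turned their sign. Hilpda in RS reversed to 0.17 with quantile normalisation and to 0.04 without both arrays. Leaving out 1 array took Hilpda in RS from -0.39 to 0.02 and in RG from -0.36 to 0.05. Where no construction shows it, the cause was not tested.

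Replicate numbers are shared by groups. In 24 pairs, same-numbered arrays correlated between -0.881 and -0.05 after group means were removed, and 0 of 15 arrays correlated best with its own number, so the numbers were not taken as a pairing. With the replicate block, 2 lipolysis genes were called in CL, 1 in RS and 0 in RG against WAT, 0 in RG against BAT and 0 in CL against RG; of the other pathway genes, 17 were called in CL, 9 in RS and 15 in RG.

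Leaving out 1 array at a time, the lipolysis genes called ranged from 3 to 7 in BAT, 2 to 4 in CL, 1 to 4 in RS and 0 to 3 in RG against WAT, from 0 to 2 in RG against BAT, from 0 to 1 in CL against RG, RS against BAT and RS against CL, and stayed at 0 in CL against BAT and RS against RG. The other pathway genes called ranged from 34 to 44, 17 to 37, 12 to 30 and 9 to 34. Of 85 differences not called, 46 changed sign under some setting, the largest of them 0.93, and 15 were called under some setting. Probe sets carry signal of unknown background, so dim genes such as Fabp12 are the least certain.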
